A study of Mus musculus with 14 samples.

Results

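A lymphoma treated with L-asparaginase (ASNase), which hydrolyses the amino acid asparagine, was set against a vehicle-treated lymphoma in the genes that the malignant cells express in culture. Members were the genes with at least 20 counts per 1000000 counts (CPM) in cultured Eµ-Myc line #506, the line from which both treated lymphomas grew. They numbered 6674 of 46959 gene entries. Of these, 6654 had 5 CPM or more in at least 1 of the 2 lymphomas and were given a ratio, 20 were under 5 CPM in both, and none was without a count. The members were chosen by their level in line #506, and those called higher or lower were selected on the ratio of 1 ASNase library to 1 vehicle library, so all sizes below are descriptions with no replicate check and no p-value.

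Eµ-Myc lymphomas are B-lineage tumours of mice that carry a Myc transgene driven by the Eµ enhancer of the immunoglobulin heavy chain locus. The series holds 14 RNA libraries. There were 12 of untreated cultured lines, each from a different transgenic mouse (Eµ-MycTg/+) and labelled WT for genotype, after 24 h in a medium supplemented with 0.37 mM L-asparagine. The other 2 came from lymph node lymphomas, also labelled WT, that cells of line #506 formed in wild-type C57BL/6 mice. From day 7 after injection until disease endpoint, the hosts received vehicle (0.9% NaCl) or L-asparaginase; the sources used here do not give their ages, the ASNase dose, the time to endpoint or how many mice a library holds. With 1 library of 1 line per treatment, the comparison stands for that line and those hosts, which kept their own lymphoid, stromal and vascular cells. Total counts were 32070893 for line #506, 27715832 for vehicle and 25690935 for ASNase, against 24597230 to 32614751 over all lines. Members held 96.5% of the counts of line #506, 91.8% of those of the vehicle library and 91.4% of those of the ASNase library.

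Asparagine synthetase, encoded by Asns, makes asparagine from aspartate with nitrogen from glutamine, and lymphoid tumours with little of the enzyme are known for their sensitivity to ASNase. Cells short of an amino acid accumulate uncharged tRNA, which activates the kinase GCN2. GCN2 phosphorylates eIF2α, translation of most mRNAs slows, and that of the transcription factor ATF4 increases. ATF4 binds C/EBP-ATF response elements with C/EBP family partners and induces Asns, amino acid transporters and enzymes of serine synthesis. A separate nutrient pathway, sterol sensing by SCAP and INSIG, releases the SREBP factors when membrane cholesterol is low, and SREBP2 induces the enzymes of cholesterol synthesis.

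The core of the C/EBP-ATF response element, TGATGNAA, was searched on both strands of RefSeq promoter sequence (GRCm38.p6), which runs from 250 bases before to 50 bases after each gene's start. The sequence upstream of Asns is shown because this gene leads the amino acid response list below. It covers chr6:7693210-7693459 on the minus strand, 5′ to 3′, and the capitals mark the match, which lay 23 to 16 bases before the RefSeq start.
Asns: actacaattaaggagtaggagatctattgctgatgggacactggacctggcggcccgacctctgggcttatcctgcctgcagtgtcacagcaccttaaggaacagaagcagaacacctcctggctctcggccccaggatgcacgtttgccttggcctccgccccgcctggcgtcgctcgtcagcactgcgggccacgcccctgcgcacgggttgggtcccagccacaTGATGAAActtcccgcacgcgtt

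The same core was found in 1219 of 27025 genes with a promoter in the table (4.51%) and in 113 of the 5021 members that had one (2.25%). Among the 80 members with a ratio of 2 or more (1.2% of those read), 63 had a promoter and 6 of these held the core (9.52%). The core is mostly A and T, and the transcripts of these 80 genes had a median GC of 40.8%, against 49.6% over all members. The part of base composition in this share was not tested. Among the 23 members at least 2-fold lower (0.346%), 14 had a promoter and 0 held it. The 5 higher genes other than Asns are shown as windows around the match, in capitals, to let the flanks be compared. They are Gpam on chr19:55127237-55127276 (minus strand), Nrip1 on chr16:76373963-76374002 (minus strand), Sh3bgrl on chrX:109095345-109095384, Socs4 on chr14:47276796-47276835 and Trim24 on chr6:37900283-37900322 (all plus strand), and in Trim24 the match is to the reverse complement.
Gpam: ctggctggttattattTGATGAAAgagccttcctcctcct
Nrip1: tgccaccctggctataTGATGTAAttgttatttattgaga
Sh3bgrl: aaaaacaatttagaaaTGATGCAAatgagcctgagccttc
Socs4: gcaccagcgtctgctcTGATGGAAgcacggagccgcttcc
Trim24: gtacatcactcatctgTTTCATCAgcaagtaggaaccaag
The first base of the match lay 22 bases before the start in Gpam, 46 in Sh3bgrl, 108 in Socs4, 159 in Nrip1 and 188 in Trim24. The matched letters were TGATGAAA in both Asns and Gpam. A match is a description of letters and not of binding.

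The vehicle lymphoma stood apart from the other libraries by base composition, a difference that every ratio below carries. GC content of the longest transcript was known for 6452 of the 6654 genes (97.0%). Across these genes the ASNase over vehicle ratio ran against GC content with a Spearman correlation of -0.64, and along gene length, over all 6654, with one of 0.40; both describe genes of the same 2 libraries. In the decile of genes with the lowest GC (median 40.1%) the median log2 ratio was 0.48, and in the highest (59.1%) it was -0.29. Set against line #506, the vehicle lymphoma went from a median log2 ratio of -0.54 in the lowest to 0.28 in the highest decile, whereas the ASNase lymphoma stayed between -0.10 and 0.00 over all 10 deciles. Against the median of the 12 lines, the step from the lowest to the highest decile was 0.77 (log2) for vehicle, 0.01 for ASNase and between -0.25 and 0.19 in the lines. The vehicle library thus lay outside the range of the lines in this measure, and the ASNase library lay inside it. Along gene length the trend lay in the ASNase library instead: over line #506 the ASNase medians ran from -0.24 in the decile of the shortest genes to 0.25 in that of the longest, while the vehicle medians lay between -0.16 and -0.05. The Spearman correlation of length with the departure from the median of the 12 lines was 0.27 for ASNase, 0.02 for vehicle and between -0.21 and 0.31 in the lines. Of the 80 higher genes, 50 fell in the lowest GC decile. For this reason many ratios are given again with the trends on length and GC taken off, a setting chosen after the data were seen and called the trend-adjusted ratio. A ratio given without it still carries both trends.

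**Figure D1:**
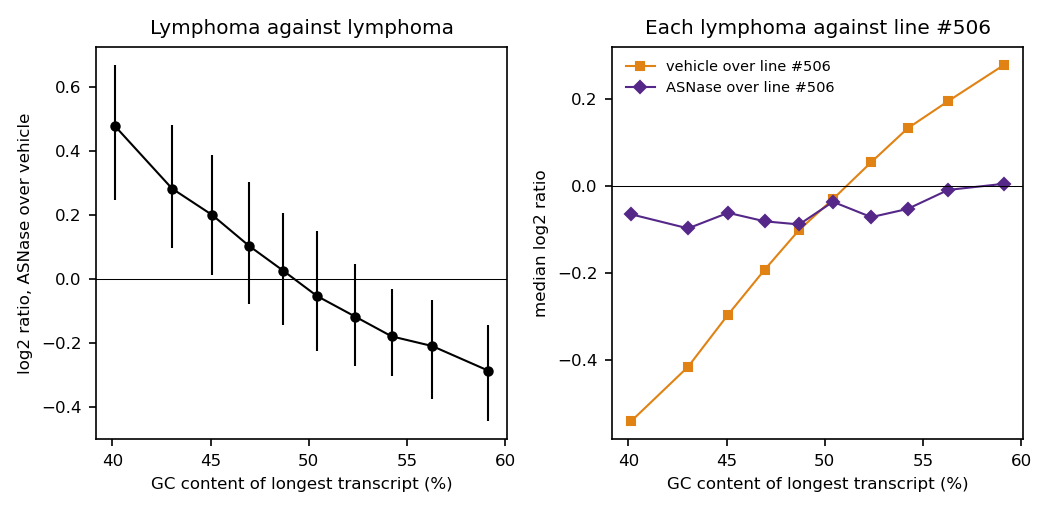
Left, the median log2 ratio of ASNase over vehicle lymphoma in 10 groups of members ordered by GC content of the longest transcript (%), with bars for the lower and upper quartile. Right, the median log2 ratio of each lymphoma over cultured line #506 in the same groups; the vehicle curve climbs from -0.54 to 0.28 and the ASNase curve stays between -0.10 and 0.00.

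Markers of host cells were present in both lymphomas at unequal levels. Markers of fibroblasts and reticular stroma, none of the 18 a member, summed to 0.405 CPM in line #506, 1584 in the vehicle and 3563 in the ASNase lymphoma. Macrophage markers, 0 of 22 members, summed to 30.4, 791 and 1646 CPM in the same order. T cell markers went the other way, with 0 of 20 members and sums of 1.12, 121 and 26.0 CPM. Endothelial markers (1 of 14 a member, Pecam1) summed to 83.8, 465 and 298 CPM, and erythroid markers (0 of 8) to 0.530, 249 and 190 CPM. NK markers (0 of 10) summed to 0.125, 7.76 and 2.34 CPM, neutrophil markers (0 of 12) to 0.156, 29.4 and 18.5 CPM, and dendritic cell markers (1 of 10) to 46.8, 80.7 and 48.0 CPM. In line #506, 12 of the 22 macrophage, 15 of the 20 T cell and 13 of the 18 stromal markers had no count; in the lymphomas, every marker of these 8 lists had a count except Ly6g and Klf1 in the vehicle library and 1 erythroid marker in the ASNase library. Pan-B markers (11 of 12 members) summed to 2760 CPM in line #506, 7178 in the vehicle and 5387 in the ASNase lymphoma. In the lymphomas these sums do not tell tumour cells from host B cells of the lymph node. Plasma cell markers (4 of 7 members) were at 696, 623 and 556 CPM. In such bulk tissue fewer cells of a type and less RNA per cell cannot be told apart, and the 20 CPM rule leaves members that host cells also express. As a stricter reading, 5252 members were at most 1.5 times their line #506 level in both lymphomas.

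Most tumour-expressed genes had similar levels in the 2 lymphomas. The median log2 ratio of the 6654 members was -0.0016, against 0.0046 over all 10804 genes that reached 5 CPM in a lymphoma, and the quartiles of members were -0.22 and 0.27. By size, 80 members were higher by 2-fold or more under ASNase (1.2% of members; 3.4% of all genes, 6.92% of the 4150 genes under 20 CPM in line #506), and 23 were at least 2-fold lower (0.346%; 1.82% of all genes and 4.19% of those under 20 CPM). Since this contrast defines the calls, nothing is read from these shares. The split was 77.7% higher among the called members, 66.2% with the length trend taken off and 54.3% with the length and GC trends taken off. Without the 20 CPM rule it was 65.1%. The trend-adjusted count was 25 higher and 21 lower of 6452, and 18 of the 80 and 12 of the 23 were among them. Among the 5252 members at most 1.5 times line #506, 50 were higher and 17 lower. At the edge of the rule, U2af1l4, Rhot2 and Cc2d1a stood at 20.02 CPM in line #506, with log2 ratios of -0.29, -0.23 and -0.23, and Nr2f6 and Ncoa7, just outside at 19.99 CPM, had log2 ratios of -0.61 and 0.08.

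**Figure D2:**
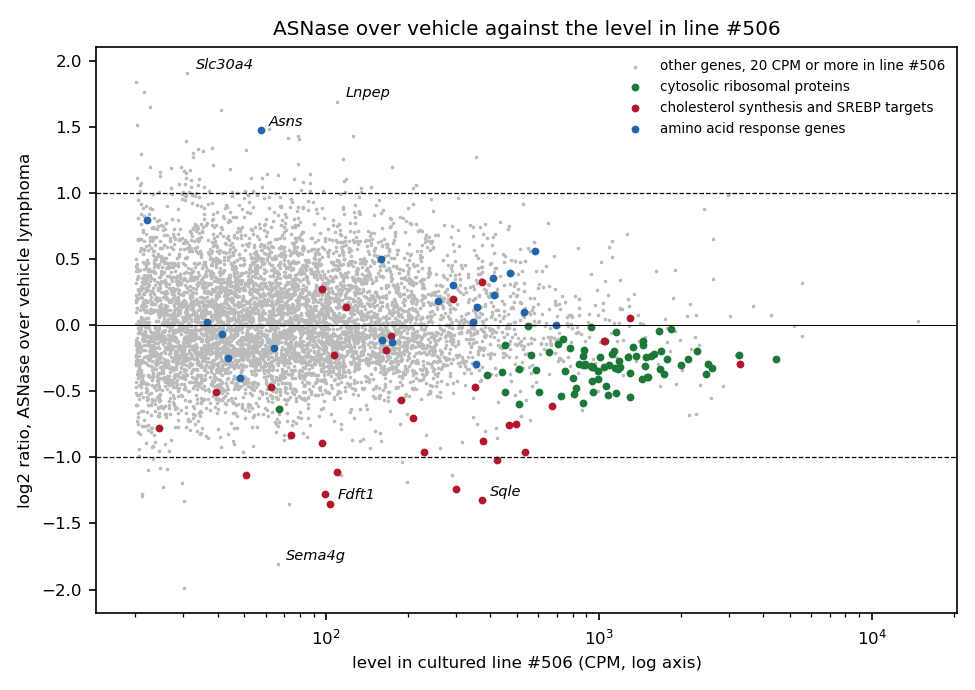
Each point is a gene that met both minimum levels; the x axis is its CPM in line #506 (log axis) and the y axis its log2 ratio of ASNase over vehicle. Dashed lines mark 2-fold, with 80 genes above and 23 below; all 77 ribosomal protein genes lie below 0 and 26 of 31 cholesterol genes do.

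Asns itself was higher in the ASNase lymphoma. It lies on chromosome 6 from 7675169 to 7693254 in the deposited coordinates. That span holds the RefSeq start used above and the motif match before it, so the match is upstream of the RefSeq start only. Its level was 57.7 CPM in line #506 (1849 counts), 31.0 CPM in the vehicle lymphoma (859 counts) and 86.3 CPM in the ASNase lymphoma (2218 counts). The ratio of ASNase to vehicle was 2.79 (exact 95% binomial interval 2.57 to 3.02, for counting error only), a log2 ratio of 1.48, and 1.51 trend-adjusted. The vehicle value lay below line #506 and the ASNase value above it. Over the 12 untreated lines Asns ran from 0.0307 CPM in line #649 (1 count) through a median of 79.0 CPM to 269 CPM in line #309, so both lymphomas lay within the spread of untreated lines.

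The other amino acid response genes with 20 CPM or more in line #506 did not share the size of the Asns ratio. Listed genes under 20 CPM in this untreated culture were not read. Of 42 listed genes 21 were members with a ratio; 13 were higher and 8 lower in the ASNase lymphoma, Asns was the only one past 2-fold, and the median log2 ratio was 0.10 (0.17 trend-adjusted, with 17 higher and 4 lower). Over all members 49.8% were higher at any size and 50.2% lower. Atf4 itself, whose mRNA is controlled mainly at translation, stood at 345 CPM in line #506, 265 in the vehicle and 270 in the ASNase lymphoma, a log2 ratio of 0.03 (trend-adjusted 0.32).

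Among enzymes, Cth, which makes cysteine from cystathionine, had the next highest ratio at 22.01 CPM in line #506, 5.88 in the vehicle and 10.2 in the ASNase lymphoma (log2 ratio 0.80, trend-adjusted 0.69). Psat1, of serine synthesis, followed at 581, 181 and 268 CPM (log2 0.56, trend-adjusted 0.54). Both were below line #506 in each lymphoma. The other serine enzymes were nearly level between the lymphomas, Phgdh at 396 CPM in each (trend-adjusted log2 0.31) and Psph at 22.6 and 22.97 CPM. Mitochondrial Shmt2 was at 438 CPM in the vehicle and 471 CPM in the ASNase lymphoma (log2 0.10, trend-adjusted 0.43), and Mthfd2 at 72.8 and 66.6 CPM (log2 -0.13). Aldh18a1, of proline synthesis, was at 111 and 126 CPM (log2 0.18).

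The amino acid transporters of the list divided. Slc38a2, which takes up small neutral amino acids, was at 474 CPM in line #506, 256 in the vehicle and 336 in the ASNase lymphoma (log2 0.40, trend-adjusted 0.17). Slc7a5, the large neutral amino acid transporter, was at 410, 244 and 312 CPM (log2 0.36, trend-adjusted 0.57). Its partner Slc3a2 was at 161, 164 and 152 CPM (log2 -0.11, trend-adjusted 0.05). The cationic transporter Slc7a1 was at 356, 198 and 218 CPM (log2 0.14, trend-adjusted -0.06), and the neutral transporter Slc1a4 at 41.6, 21.5 and 20.6 CPM (log2 -0.06, trend-adjusted 0.07), so these 3 differences turned direction with the trends off. Slc1a5, a glutamine transporter, was lower in the ASNase lymphoma at 781 against 954 CPM (log2 -0.29, trend-adjusted -0.10), yet both values were above the 354 CPM of line #506 and above the 494 CPM of the highest line.

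The remaining genes of the list act in stress responses. Ero1l, an oxidase of the endoplasmic reticulum, was at 159 CPM in line #506, 44.1 in the vehicle and 62.6 in the ASNase lymphoma (log2 0.50), but only 0.19 trend-adjusted. Herpud1, of protein degradation at the endoplasmic reticulum, was at 291, 223 and 275 CPM (log2 0.30, trend-adjusted 0.53). Xpot, the tRNA exporter, was at 411, 200 and 235 CPM (log2 0.23, trend-adjusted 0.05). On the lower side, Cebpg, a partner of ATF4, was at 48.2, 60.6 and 45.9 CPM (log2 -0.40, trend-adjusted -0.70), Ddit4, an inhibitor of mTORC1, at 43.6, 149 and 126 CPM (log2 -0.24, trend-adjusted 0.13), and the translation repressor Eif4ebp1 at 64.1, 50.1 and 44.5 CPM (log2 -0.17, trend-adjusted 0.0083). Ddit4 and Eif4ebp1 were thus not lower with the trends off. The core TGATGNAA was in 3 of the 16 list members with a promoter (18.8%), Asns, Herpud1 and Slc1a4, whose log2 ratios were 1.48, 0.30 and -0.06.

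Upstream of ATF4, 14 of the listed eIF2 kinase and GCN2 pathway genes had 7 higher and 7 lower ratios and a median of -0.01 (-0.09 trend-adjusted). Eif2ak2, the kinase PKR, had the largest at 34.2 CPM in line #506, 38.6 in the vehicle and 61.2 in the ASNase lymphoma (log2 0.66, trend-adjusted 0.41). Cytosolic aminoacyl-tRNA synthetases, which charge tRNA, had 5 of 20 higher and 15 lower (median -0.12), with none past 2-fold. Of the 20, 19 were below line #506 in each lymphoma, against 55.8% of all members in the vehicle and 53.6% in the ASNase lymphoma. Among the enzymes of asparagine, aspartate and glutamine 12 of 18 were higher (median 0.10, and -0.0015 trend-adjusted). There Glul, glutamine synthetase, was at 90.7, 144 and 222 CPM (log2 0.63, trend-adjusted 0.68). It was above culture in both lymphomas, and the part of host cells in its ratio was not tested.

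The genes of cholesterol synthesis and SREBP control were lower in the ASNase lymphoma as a group, with the lowest median of the 30 pathway lists. Of 34 listed genes 31 were members with a ratio, 26 of them lower and 5 higher, with a median log2 ratio of -0.70 and 7 past 2-fold. Trend-adjusted, 28 were lower, the median was -0.56 and 7 were past 2-fold. Levels stepped down from culture to vehicle to ASNase in 25 of the 31. Line #506 was itself the highest of the 12 lines for 21 of them. The share over all members was not counted for this or for the step down. Below all 12 lines lay 25 of the vehicle values and 28 of the ASNase values, against 23.1% and 21.3% of all members.

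**Figure D3:**
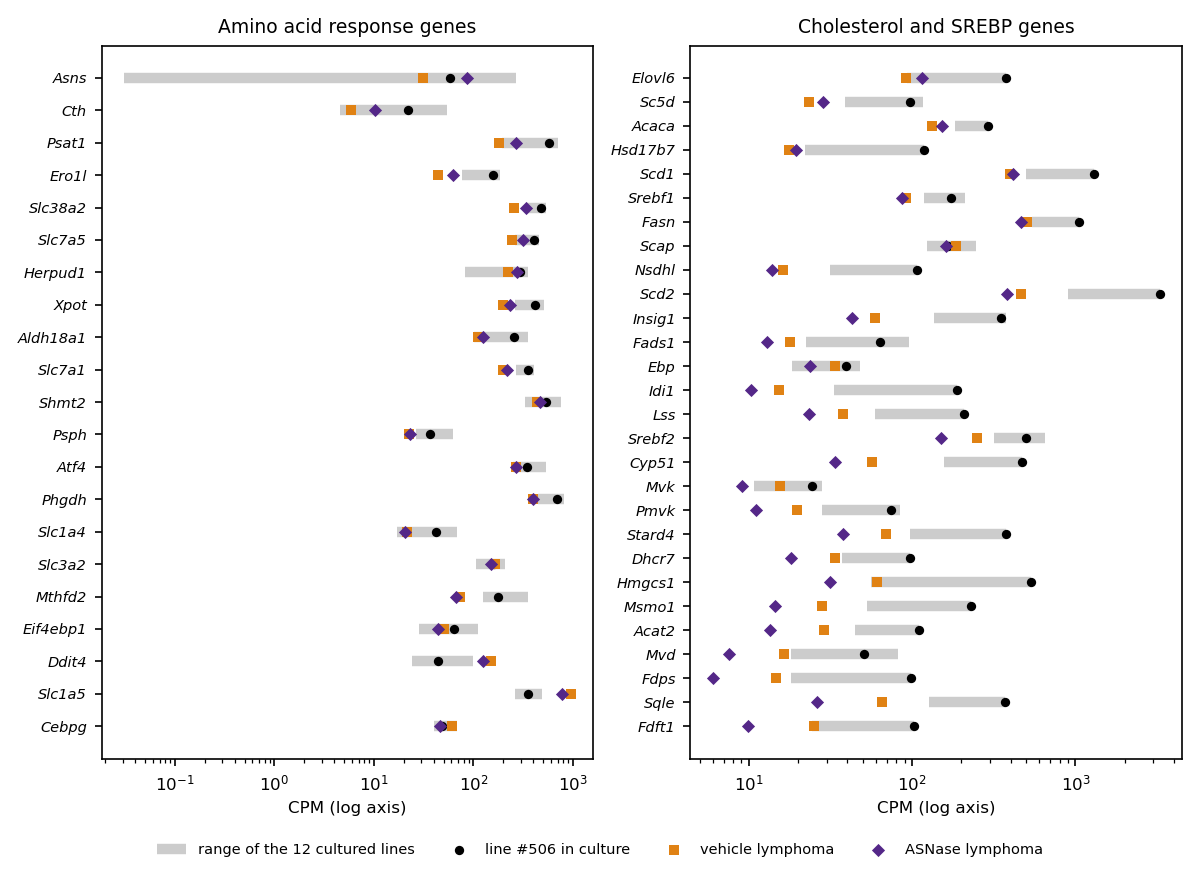
CPM (log axis) of the amino acid response genes (left) and the cholesterol and SREBP genes (right) with 20 CPM or more in line #506, ordered by the ratio of ASNase to vehicle; grey bars are the range of the 12 cultured lines, and black, orange and violet symbols are line #506, the vehicle and the ASNase lymphoma. On the right the violet symbols lie left of the orange ones in 23 of the 28 genes drawn, and on the left in 8 of 21.

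Along the pathway, the early enzymes Hmgcs1 and Acat2 stood at 535 and 110 CPM in line #506, 60.7 and 28.9 CPM in the vehicle and 31.2 and 13.4 CPM in the ASNase lymphoma (log2 ratios -0.96 and -1.11). The mevalonate kinases and decarboxylase followed, Mvk at 24.3, 15.6 and 9.11 CPM (log2 -0.78, trend-adjusted -0.44), Pmvk at 74.1, 19.7 and 11.1 CPM (log2 -0.83, trend-adjusted -0.47) and Mvd at 50.9, 16.5 and 7.51 CPM (log2 -1.13). All 5 were lower in the ASNase lymphoma, and the 2 past 2-fold, Acat2 and Mvd, were at -0.99 and -0.74 trend-adjusted.

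The steps around squalene held the lowest ratios of the list. Fdft1, squalene synthase, stood at 103 CPM in line #506, 25.2 in the vehicle and 9.89 in the ASNase lymphoma, a ratio of 0.393 (exact 95% interval 0.339 to 0.454; trend-adjusted log2 -1.18). Sqle, squalene epoxidase, was at 372, 65.3 and 26.1 CPM, a ratio of 0.400 (0.366 to 0.437; trend-adjusted log2 -1.38). Fdps, farnesyl diphosphate synthase, was at 98.7, 14.5 and 5.99 CPM, a ratio of 0.412 (0.340 to 0.498; trend-adjusted log2 -1.13). For each of the 3 the ASNase value was below all 12 lines. Idi1, which isomerises the building block of Fdps, was at 189, 15.2 and 10.3 CPM (log2 -0.56).

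Later enzymes were lower to a varying degree. Lss, which closes the sterol ring, was at 208 CPM in line #506, 37.9 in the vehicle and 23.3 in the ASNase lymphoma (log2 -0.70). Cyp51 was at 470, 56.9 and 33.8 CPM (log2 -0.75) and Msmo1 at 229, 27.9 and 14.4 CPM (log2 -0.96, trend-adjusted -1.21). Both remove methyl groups from the sterol nucleus. Dhcr7, a reductase late in the pathway, was at 96.7, 33.8 and 18.2 CPM (log2 -0.89). Exceptions were Hsd17b7 at 17.6 CPM in the vehicle and 19.3 CPM in the ASNase lymphoma (log2 0.14, trend-adjusted -0.11) and Sc5d at 23.3 and 28.2 CPM (log2 0.27).

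The transport and control genes named here were also lower before adjustment, to a varying degree. Stard4, a cholesterol carrier, was at 377 CPM in line #506, 69.3 in the vehicle and 37.7 in the ASNase lymphoma (log2 -0.88, trend-adjusted -1.15). Srebf2, the factor SREBP2, was at 498, 250.4 and 149 CPM (log2 -0.75) and Insig1 at 352, 59.3 and 43.0 CPM (log2 -0.46). Scap, the sterol sensor, was nearly level at 166, 184 and 162 CPM (log2 -0.19), as was Srebf1 at 173, 92.0 and 87.1 CPM (log2 -0.08, trend-adjusted 0.08).

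The fatty acid genes of the list were closer to level between the lymphomas. Fasn, fatty acid synthase, was at 1046 CPM in line #506, 503 in the vehicle and 464 in the ASNase lymphoma (log2 -0.12). Scd1 and Scd2, which desaturate fatty acids, were at 399 and 466 CPM in the vehicle and 415 and 379 CPM in the ASNase lymphoma (log2 0.06 and -0.30, Scd1 being at -0.04 trend-adjusted). Acaca and Elovl6 were higher, with log2 ratios of 0.20 and 0.33, and were at -0.14 and 0.02 trend-adjusted.

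A sterol regulatory element was searched in the same promoters as TCACNCCAC on both strands, a motif chosen after the data were seen. It was in 388 of 27025 genes (1.44%), 71 of 5021 members (1.41%) and 1 of the 21 cholesterol genes with a promoter (4.76%), Hmgcs1. Fdps, Fdft1, Sqle and Stard4 have no entry. The Hmgcs1 window is shown as the single match, on chr13:119690198-119690238, plus strand, with the match in capitals from 137 bases before the start.
Hmgcs1: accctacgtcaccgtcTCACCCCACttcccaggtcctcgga

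The 10 highest named ratios included Asns and were otherwise spread over unrelated functions. Slc30a4, a zinc transporter, led with 31.0 CPM in line #506, 7.40 in the vehicle and 27.8 in the ASNase lymphoma, a ratio of 3.76 (exact 95% interval 3.22 to 4.42; log2 1.91, trend-adjusted 1.52). Lnpep, a membrane aminopeptidase, was at 110 CPM, 27.1 CPM and 87.8 CPM, a ratio of 3.24 (2.98 to 3.52; trend-adjusted log2 1.27). In both genes the ASNase lymphoma was close to culture and the vehicle lymphoma was the low library; for Lnpep the vehicle value was below all 12 lines, which ran from 81.1 to 145 CPM. Ptar1 had the same form at 22.6, 5.16 and 16.2 CPM (ratio 3.15, 2.60 to 3.83; trend-adjusted log2 1.36). Lcor, a corepressor of nuclear receptors, was at 20.3, 8.80 and 25.2 CPM (ratio 2.87, 2.47 to 3.33; trend-adjusted log2 1.07).

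Zfp942 and Zfp871, zinc finger genes, were at 11.2 and 17.0 CPM in the vehicle and 40.3 and 52.6 CPM in the ASNase lymphoma, with 20.1 and 41.1 CPM in line #506 (log2 1.85 and 1.63, trend-adjusted 1.27 and 1.18). Both belong to a large family of similar genes, so reads could be shared with relatives. Zfp942 exceeded 1.5 times its culture level and the 32.4 CPM of the highest line. Tgfb2, a growth factor of the TGF-β family, and Fndc3c1 were far below culture in both lymphomas, at 61.6, 1.80 and 5.06 CPM and at 78.7, 5.09 and 13.7 CPM. Their ratios of 2.80 (2.01 to 3.97) and 2.70 (2.22 to 3.31) rest on 50 and 141 counts in the vehicle library. Tgfb2 met the 5 CPM minimum only in the ASNase library. Dmxl1, which has a role in acidifying vesicles, completed the 10 at 125, 55.3 and 149 CPM (log2 1.43), and its trend-adjusted log2 ratio was 0.57; its transcript has 38.3% GC.

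**Figure D4:**
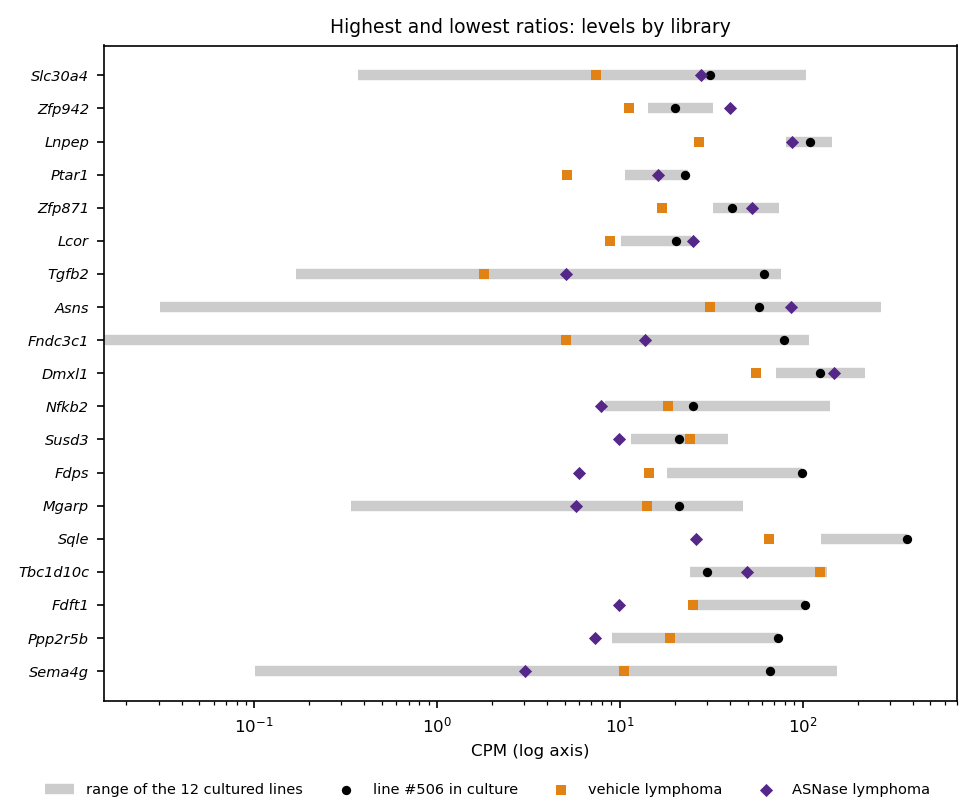
CPM (log axis) of the 10 genes with the highest and 9 of the 10 with the lowest ratio of ASNase to vehicle among named members; grey bars are the range over the 12 cultured lines (a range that reaches 0 starts at the left edge), and symbols are line #506, the vehicle and the ASNase lymphoma. In the upper 10 rows the vehicle symbol is leftmost of the 3, and in the lower 9 the ASNase symbol is left of the vehicle symbol.

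Across all 80 higher genes the vehicle lymphoma was below line #506 in 67 and the ASNase lymphoma in 26, against 55.8% and 53.6% of all members. The median log2 ratio to line #506 was -0.84 in the vehicle and 0.31 in the ASNase lymphoma. The ASNase value was the nearer to line #506 in 49 of the 80, against 3533 of all 6654 members. The vehicle value was below all 12 lines in 31 of the 80, against 23.1% of all members, and the ASNase value above all lines in 31, against 15.3%. A gene called higher was picked for a low vehicle or a high ASNase value, which in part sets these counts. The genes had a median length of 6711.5 bases and 40.8% GC, against 4280 bases and 49.6% GC over all members, and 10 of the 80 were predicted genes or other entries left out of naming.

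Some of the 80 genes, named after their values were seen, act in signalling. Spred1 and Spred2, inhibitors of the Ras-ERK pathway, were at 12.2 and 11.6 CPM in the vehicle and 27.1 and 26.6 CPM in the ASNase lymphoma (log2 1.15 and 1.20, trend-adjusted 0.69 and 1.26), with 30.7 and 22.6 CPM in line #506. Fkbp5, a co-chaperone of steroid receptors that glucocorticoids induce, was above culture in both, at 78.7, 126 and 293 CPM (log2 1.22, trend-adjusted 1.20).

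Others of the 80 act in metabolism, transport and transcription. Atp1b1, a subunit of the sodium pump, was at 72.4, 10.4 and 27.7 CPM (log2 1.42, trend-adjusted 1.49), and Gpam, which starts glycerolipid synthesis, at 213, 73.2 and 153 CPM (log2 1.07 before and after adjustment). Fnip1, a partner of folliculin in nutrient sensing, was at 31.7, 21.8 and 49.1 CPM (log2 1.17, trend-adjusted 0.58). The transcription factors Mef2c, at 119, 99.5 and 214 CPM, and Pou2f1, at 87.3, 98.6 and 208 CPM, had log2 ratios of 1.10 and 1.08, and trend-adjusted log2 ratios of 0.43 and 0.53. With Asns, Atp1b1, Fkbp5, Spred2 and Gpam were among the 18 that stayed past 2-fold.

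The lowest named ratios held Fdft1, Sqle and Fdps, and 6 genes outside the cholesterol list. Sema4g, a semaphorin, was lowest with 66.4 CPM in line #506, 10.6 in the vehicle and 3.04 in the ASNase lymphoma, a ratio of 0.286 (0.220 to 0.369; trend-adjusted log2 -1.63). Ppp2r5b, a regulatory subunit of phosphatase 2A, was at 73.3, 18.8 and 7.36 CPM (ratio 0.391; trend-adjusted log2 -1.04), and Mgarp, a mitochondrial protein, at 21.1, 14.1 and 5.76 CPM (ratio 0.407). All 3 stepped down from culture to vehicle to ASNase. Nfkb2, a subunit of NF-κB, did so too at 25.2, 18.4 and 7.90 CPM (log2 -1.22, trend-adjusted -0.93).

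Tbc1d10c and Susd3 had another form, with the vehicle value above culture. Tbc1d10c, an inhibitor of Ras and calcineurin in lymphocytes, was at 30.2 CPM in line #506, 124 in the vehicle and 49.4 in the ASNase lymphoma (log2 -1.33, trend-adjusted -0.98). Susd3 was at 21.1, 24.1 and 9.96 CPM (log2 -1.28), and its trend-adjusted ratio of 0.504 was not past 2-fold. Cd52, a surface glycoprotein of lymphocytes, was also above culture, at 29.7, 90.7 and 39.6 CPM (log2 -1.20, trend-adjusted -0.93). Il2rg, the common cytokine receptor chain, was at 24.6, 38.7 and 18.3 CPM (log2 -1.08) and was not past 2-fold when trend-adjusted. T cells also express Tbc1d10c, Cd52 and Il2rg, and the summed T cell markers were 121 CPM in the vehicle and 26.0 CPM in the ASNase lymphoma; their part in these ratios was not tested. Il2ra, the high-affinity chain, was below culture in both, at 26.1, 5.95 and 2.80 CPM (log2 -1.09, trend-adjusted -1.35).

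Over all 23 lower genes the vehicle lymphoma was below line #506 in 15 and the ASNase lymphoma in 19 (55.8% and 53.6% of all members), with median log2 ratios to line #506 of -1.34 and -2.37. The ASNase value was below all 12 lines in 13 of the 23, against 21.3% of all members, and here too the choice by ratio in part sets the counts. Of those not yet named, Dynll1, a dynein light chain, was at 113 CPM in line #506, 122 in the vehicle and 55.8 in the ASNase lymphoma (log2 -1.13, trend-adjusted -1.11). Arhgap4, a regulator of small GTPases, was at 23.1, 115 and 56.9 CPM (log2 -1.01, trend-adjusted -1.03). Mfge8, a bridging protein for dying cells, was at 22.2, 60.9 and 28.5 CPM (log2 -1.10) and was not past 2-fold when trend-adjusted. Both were above culture in each lymphoma. Gm24270, a predicted gene, was at 189, 364 and 177 CPM (log2 -1.04, trend-adjusted -0.19). The 23 genes had a median GC content of 54.8% and a median length of 3289 bases. Igkv17-121, an immunoglobulin segment left out of naming, had 30.1 CPM in line #506, the highest of the lines, 11.9 in the vehicle and 3.00 in the ASNase lymphoma (log2 -1.99, trend-adjusted -1.89).

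Ribosomal protein genes were lower together, by a small size. All 77 were lower in the ASNase lymphoma, with a median log2 ratio of -0.30, a lowest of -0.63 (Rpl24, at 67.4 CPM in line #506, 81.0 in the vehicle and 52.2 in the ASNase lymphoma) and none past 2-fold. Most stood above line #506 in the vehicle lymphoma, where 4 of 77 were below it, and 27 were below it in the ASNase lymphoma (55.8% and 53.6% of all members). Their median gene length was 1631 bases, and trend-adjusted the median was -0.08, with 53 lower and 24 higher. Many of these genes have near-identical processed copies, and the sources used here do not say how reads with several matches were counted, so single values are uncertain. The ribosome biogenesis and MYC target list had 33 of 43 lower (median -0.11, trend-adjusted -0.03), with Ldha, lactate dehydrogenase, at 2340.5, 1137 and 832 CPM (log2 -0.45).

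Glycolysis and the pentose phosphate pathway had 19 of 24 lower in the ASNase lymphoma, with a median of -0.29 (trend-adjusted -0.14, again 19 of 24). Pfkl, the liver form of phosphofructokinase, was the single gene past 2-fold at 198 CPM in line #506, 113 in the vehicle and 49.4 in the ASNase lymphoma (log2 -1.19, trend-adjusted -0.99). Aldoa, aldolase A, was at 558, 235 and 143 CPM (log2 -0.72), Eno1, enolase, at 2582, 978 and 666 CPM (log2 -0.55), and Tpi1 at 493, 304 and 211 CPM (log2 -0.53). These 4 were highest in culture and lowest under ASNase. Nuclear genes of the respiratory chain had 38 of 45 lower (median -0.14), but the median was 0.02 trend-adjusted. The 7 mitochondrially encoded mRNAs in the list were higher, with a median of 0.52 and 0.09 trend-adjusted. Entries with symbols starting with mt- made up 1.41% of the counts of line #506, 1.35% of the vehicle and 1.79% of the ASNase library. Reads assigned to nuclear copies of mitochondrial genes are outside these shares, so the full mitochondrial shares and their order are not known.

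Stress and signalling lists were mostly lower or mixed. Immediate early genes had 9 of 10 lower (median -0.57, trend-adjusted -0.28), among them Nr4a1, an orphan nuclear receptor induced by antigen receptor signals, at 65.4, 20.4 and 11.6 CPM (log2 -0.81, trend-adjusted -0.51). Hsph1, a co-chaperone of HSP70, was at 289, 106 and 48.4 CPM (log2 -1.13, trend-adjusted -1.34), while its list of chaperones had 16 of 22 lower with a median of -0.07. The unfolded protein response list had 13 of 20 lower (median -0.12). The p53 pathway had 9 of 16 higher with a median of 0.08, which was -0.07 trend-adjusted, and within it Bbc3, the death effector PUMA, was at 20.5, 16.6 and 9.46 CPM (log2 -0.81, trend-adjusted -0.36).

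The division genes differed little in their medians before adjustment. DNA replication had 21 of 39 higher (median 0.03, and -0.02 under TMM scaling) and mitosis 22 of 48 (median -0.02). Trend-adjusted, replication had 24 higher and 15 lower (median 0.05), and mitosis 10 higher and 37 lower (median -0.19). Replication members were below line #506 in 32 of 39 in the vehicle and 31 in the ASNase lymphoma, and mitosis members in 36 of 48 in each, where all members had 55.8% and 53.6% below it. Plk1 and Aurka, mitotic kinases, were lower at 105 and 56.6 CPM in the vehicle and 57.0 and 35.8 CPM in the ASNase lymphoma (log2 -0.87 and -0.66). Repair genes had 20 of 24 higher (median 0.23), with Blm, a helicase, at 81.9, 47.4 and 87.8 CPM (log2 0.89, trend-adjusted 0.50) and Brca2 at 41.3, 40.4 and 67.5 CPM (log2 0.74, trend-adjusted 0.17). Trend-adjusted, the repair list had 13 of 24 higher and a median of 0.05.

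B cell genes split. In the list of B-lineage factors and B cell receptor genes 18 of 37 were higher and 19 lower (median -0.05), with Ebf1 and Bach2, transcription factors, at 92.3 and 235 CPM in the vehicle and 172 and 394 CPM in the ASNase lymphoma (log2 0.90 and 0.74, trend-adjusted 0.43 and 0.51). Mature B cell surface and homing genes had 11 of 18 lower (median -0.23, trend-adjusted -0.09), with Ccr7, the receptor that guides cells in lymph nodes, at 137, 64.7 and 35.6 CPM (log2 -0.86, trend-adjusted -0.60). MHC class I genes had 15 of 17 lower (median -0.30, trend-adjusted -0.12, with 11 lower). Cd74, the MHC class II invariant chain, was at 126, 1885 and 1159 CPM (log2 -0.70, trend-adjusted -0.33), above culture in both lymphomas. The part of host cells in this ratio was not tested.

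**Figure D5:**
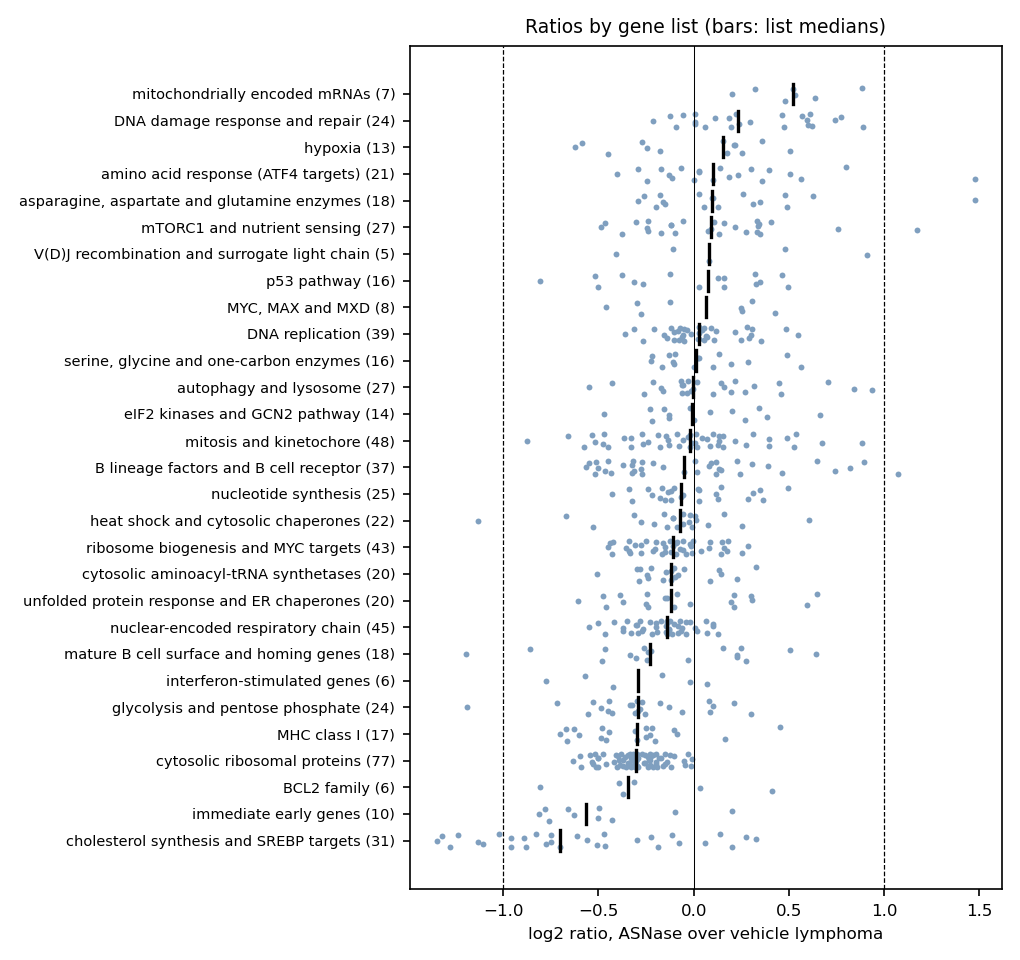
Log2 ratios of ASNase over vehicle for the members of each pathway list with at least 5 members read, 1 point per gene, with a bar at the list median and the number of genes in brackets. Dashed lines mark 2-fold; the cholesterol list has the lowest median of those drawn, at -0.70, and the mitochondrially encoded mRNAs the highest, at 0.52.

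Other lists had medians near that of all members. Serine, glycine and one-carbon enzymes had 8 of 16 higher (median 0.01, and -0.03 under TMM scaling), nucleotide synthesis 11 of 25 (median -0.07), mTORC1 and nutrient sensing 15 of 27 (median 0.09, and 0.03 trend-adjusted) and the MYC, MAX and MXD genes 4 of 8 (median 0.06, and -0.02 trend-adjusted). Hypoxia genes had 7 of 13 higher (median 0.15, and -0.07 trend-adjusted), with Vegfa, the vascular growth factor, at 33.6 CPM in line #506, 52.4 in the vehicle and 34.9 in the ASNase lymphoma (log2 -0.58). V(D)J recombination genes had 3 of 5 higher (median 0.08, and -0.09 trend-adjusted) and nuclear long RNAs 2 of 5 (median -0.04, and -0.38 trend-adjusted). Lists with lower medians were small: 4 of 6 BCL2 family genes (median -0.34, and 0.0006 trend-adjusted), 5 of 6 interferon-stimulated genes (median -0.29, and -0.21 trend-adjusted) and 3 of 3 MHC class II genes (median -0.63, and -0.33 trend-adjusted) were lower. Among the interferon-stimulated genes Stat2, a signal transducer of the type I receptor, was at 22.9, 66.1 and 38.5 CPM (log2 -0.78, trend-adjusted -0.69).

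Lysosomal genes were mixed. The autophagy and lysosome list had 13 of 27 higher and 14 lower (median -0.0024, and 0.11 trend-adjusted), but the cathepsins Ctsd and Ctsb stood above culture in both lymphomas and higher under ASNase, at 75.1, 272 and 521 CPM and at 194, 399.9 and 653 CPM (log2 0.94 and 0.71, trend-adjusted 1.21 and 0.69). Macrophages express both genes strongly, and the macrophage markers, summed, were at 791 CPM in the vehicle and 1646 CPM in the ASNase lymphoma; their part in these ratios was not tested.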

How the data were processed

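Counts per gene for 14 libraries were taken as deposited: whole-number counts, not normalized. Per the labels' protocols, RNA was sequenced in paired ends from stranded mRNA libraries; the submitters' processing notes name STAR 2.4.0, featureCounts, Subread 1.5.0-p3 and the build mm10 (GRCm38). The sources used here do not give the counting's strand setting or its treatment of reads with several matches, so overlapping, antisense and near-identical genes are uncertain.

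All columns were matched to samples by title. CPM is the count over the column's total without the 100 spike-in and phage entries (0 spike-in and 5 to 534 phage counts per library). Ratios of single libraries carry exact 95% binomial (Clopper-Pearson) intervals from scipy 1.17.1; reads have no molecular identifiers, so intervals cover counting error only and do not cover differences between mice. Calls by size need a log2 ratio of at least 1 or at most -1 and 5 CPM in either lymphoma. Some genes met that minimum only in the library where they were higher, such as Tgfb2, Sema4g, Il2ra and Igkv17-121. Simulated counts, which held no length or GC trend and no difference between mice, checked the code of the size rule only. Trends were lowess curves (fraction 0.3, statsmodels 0.14.6) on log2 gene length and then on GC content of the longest transcript, from GENCODE M21 sequence; the GC step and the sterol motif were added after the data were seen. Alternatives used edgeR 4.0.16 (TMM) and DESeq2 1.42.0 (size factors) in R 4.3.3 for scaling only.

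The members and the 41 gene lists were chosen with earlier results of these data known. Named genes were Asns, the 10 highest and 10 lowest ratios without immunoglobulin, predicted, pseudogene and mitochondrial entries, the 8 highest and 8 lowest of those at most 1.5 times line #506, the 3 largest absolute ratios per pathway list, all amino acid response members, and up to 5 higher genes with the motif; other genes were named after their values were seen. Host lists are given as sums. A few withheld genes are counted in their lists but not named here.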

Additional observations from a re-analysis of the deposited data

How the results depend on the processing

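Each difference rests on 1 library per treatment, so none could be checked by leaving a library out, and depth limits only the counting error. No paired analysis was possible because each treatment has 1 library and the labels give no replicate numbers. The median log2 ratio of members was -0.046 with edgeR's TMM and with DESeq2's size factors, and these gave 58 higher and 26 lower genes each. The Asns ratio stayed between 2.70 and 2.94 under the 6 alternatives that apply to it. Higher and lower counts followed the gene filter: 126 genes were higher with 10 CPM in line #506 as the minimum, 37 higher and 13 lower with 50 CPM, 367 higher and 197 lower with no such filter, 46 higher and 10 lower with 20 CPM required in each of the 12 lines, and 50 higher among genes at most 1.5 times line #506. With 20 CPM required in either lymphoma 15 were lower. A 1.5-fold size gave 521 higher and 237 lower. With the length trend off 49 were higher, 41 of them also in the main count, and with the length and GC trends off 25 were higher, 18 of them also in the main count. Direction was followed in 118 genes named as amino acid response members or as the most changed of a list. TMM, DESeq2's factors and member scaling move every log2 ratio by a constant (-0.044, -0.044 and 0.006). A pseudocount of 0.5 CPM cannot change a direction. These settings could not reverse a gene past 2-fold, so nothing is read from the absence of reversals under them. The decile medians of the log2 ratio ran only from -0.22 to 0.29 by length and from 0.48 to -0.29 by GC. Taking off trends of that size could hardly reverse a gene past 2-fold, so nothing is read from the following either. With the length trend off no gene past 2-fold changed direction. Nor did any past 2-fold of the 117 with a GC value under the length and GC trends. Genes nearer 1 did: 2 under TMM and the same 2 under DESeq2's factors (Atf4 and Psph), 1 under member scaling (Phgdh), 3 with the length trend off (Eif4ebp1, Phgdh and Slc7a1) and 10 with the length and GC trends off, among them Ddit4, Slc1a4, Slc3a2, Prkdc, Mga and Hspa4l.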

Other observations

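With the length and GC trends taken off, a setting chosen after the data were seen, 7 genes higher and 9 lower in the ASNase lymphoma passed 2-fold that had not done so before. On the higher side, Cited2, a transcriptional coregulator, stood at 30.7 CPM in line #506, 10.5 in the vehicle and 20.9 in the ASNase lymphoma (log2 0.99 before and 1.27 after). Cirbp, an RNA-binding protein that cold induces, was at 26.1, 72.7 and 136 CPM (log2 0.90 and 1.13). Zfpm1, the GATA cofactor FOG1, was at 143, 128 and 210.4 CPM (log2 0.71 and 1.09). The others were Ctsd, Vat1, Spats2 and Gm340.

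On the lower side, 3 of the 9 were cholesterol genes, Msmo1, Stard4 and Hmgcs1. Neat1, the nuclear long RNA of paraspeckles, was at 40.8 CPM in line #506, 116 in the vehicle and 64.4 in the ASNase lymphoma (log2 -0.84 and -1.28). Bank1, a scaffold of B cell receptor signalling, was at 80.6, 79.9 and 49.2 CPM (log2 -0.70 and -1.05). Rgs5, a gene of pericytes, was at 58.6, 102 and 64.3 CPM (log2 -0.67 and -1.02), and Mns1, Mrps25 and Mettl16 completed the group.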
